A study of Mus musculus with 6 samples.

Results

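MiR-129 is a microRNA (miRNA) that the mouse genome encodes at 2 places, and 3 of the 1251 miRNA arms in the deposited table belong to it: miR-129-5p, miR-129-1-3p and miR-129-2-3p. They were taken by name, after their high values in brown fat and low values in subcutaneous fat had been seen, so the levels of these 3 arms in the tissues are given as a description, with no test. All libraries came from C57BL/6J mice, an inbred laboratory strain, aged 5 to 6 weeks when feeding began. Every mouse was fed for 11 weeks on a high-fat diet, with 45% of its energy as fat, 20% as protein and 35% as carbohydrate. The titles and the design text place all of them in the arm that also received 6.75% eicosapentaenoic acid (EPA), an omega-3 fatty acid, and no library without EPA was analysed here. Tissue was frozen after a fast of 4 hours. There were 3 libraries of interscapular brown fat (BF-EPA in the labels, here BAT_EPA 3, 4 and 5) and 3 of inguinal subcutaneous fat (SUB-EPA, here SAT_EPA 1, 3 and 8). It is not stated if 1 mouse gave both tissues or if mice were pooled, so spreads and p-values describe these samples and may be partly technical.

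A miRNA is cut from a folded precursor, the hairpin, whose left and right sides give the 5p and the 3p arm. One arm is loaded into an Argonaute protein and pairs with messenger RNAs through its seed, bases 2 to 8, which lowers their translation and stability. MiR-129 is best known as a miRNA of the brain, and the CpG island at Mir129-2 is often methylated in tumours. Brown fat burns fatty acids to make heat and is densely supplied with sympathetic nerves, whereas inguinal fat is a white depot that mainly stores lipid.

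The sequences show why 1 arm of miR-129 cannot name its locus and the other can. RefSeq (GRCm38.p6) held a mature sequence for 2 of the 3 arms. They are shown with the seed in capitals, 5′ to 3′.
miR-129-5p: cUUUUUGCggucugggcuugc
miR-129-2-3p: aAGCCCUUaccccaaaaagcau
Of 1679 mature miRNA names in the RefSeq table, 0 others shared the seed of miR-129-5p and 0 others that of miR-129-2-3p. These counts leave out miR-129-1-3p, for which RefSeq held no mature sequence. The arms shown do not share a seed with each other. Both hairpins follow, with the 5p arm and the stretch that matches miR-129-2-3p in capitals.
Mir129-1: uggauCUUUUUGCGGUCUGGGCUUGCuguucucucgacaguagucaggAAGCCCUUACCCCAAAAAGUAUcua
Mir129-2: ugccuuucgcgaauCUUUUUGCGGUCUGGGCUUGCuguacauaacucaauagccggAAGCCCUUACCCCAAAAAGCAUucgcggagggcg
Each hairpin holds 1 exact copy of miR-129-5p, so a value for that arm adds up what both loci give. The 3p side of Mir129-1 differs from miR-129-2-3p by 1 substitution, C20U, counted from 1 at the 5′ end of miR-129-2-3p, whose base comes first. This base lies outside the seed, so the Mir129-1 stretch carries the seed of miR-129-2-3p as well. MiR-129-1-3p would share that seed if it starts where this stretch does. The base that differs is in capitals below, first in miR-129-2-3p and then in the Mir129-1 hairpin.
miR-129-2-3p: aagcccuuaccccaaaaagCau
Mir129-1 hairpin stretch: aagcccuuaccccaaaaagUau
A read that ends before position 20 fits both hairpins. How the authors assigned such reads is not given in the sources used here, and the assignment of the 3p values to a locus rests on this 1 base.

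The loci lie in different settings on GRCm38, the assembly also called mm10, in the GENCODE M21 annotation. Mir129-2 lies on chromosome 2, 94241364 to 94241453, on the minus strand, in an intron of the long noncoding RNA gene Mir670hg (94160636 to 94264918). Mir670, the miRNA that gives this host its name, lies 19.8 kb away in exon 2 of the same host (94261300 to 94261399). The hairpin Mir129b covers nearly the same bases on the opposite strand (94241378 to 94241442), and its arms were not analysed here. Mir129-1 lies on chromosome 6, 29022619 to 29022691, on the plus strand, in exon 2 of the long noncoding RNA gene Gm3294 (28981634 to 29028922). It ends 37.5 kb before Lep (29060220 to 29073877), the gene of the fat-cell hormone leptin. No messenger RNA was measured, so the level of either host or of Lep is unknown here.

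The values are log2 abundances with a floor of 3.32 (10 on the linear scale) and a shared maximum of 18.67. The libraries have nearly equal distributions, so depth cannot be read from them and no counting interval is given. The same values recur between libraries, such as 10.7371 for miR-129-5p in BAT_EPA 3 and for miR-133a-3p in SAT_EPA 1. Shares of a library and folds between arms given below hold on this normalized scale. They may differ from those of read counts. Between 235 and 273 arms per library lay above the floor. Markers of the dissected tissues went with the labels: of 6 tested arms of brown adipocyte miRNAs, 5 were higher in brown fat and 0 lower, and all 5 tested arms of the posterior and white depot list were lower (limma, adjusted p under 0.05). Over all 269 tested arms 69.1% were called, 33.5% higher and 35.7% lower in brown fat. The lists were chosen with earlier results of these data known, so their counts are no independent check of the labels. Lists of other cell types also moved between the tissues: of the endothelial list 2 of 2 tested arms were lower in brown fat, and of the leukocyte list 1 of 4 was higher and 3 lower. MiR-122-5p, the defining miRNA of liver cells, was higher in brown fat, at 9.97, 5.60 and 9.0 in BAT_EPA 3, 4 and 5 and at the floor in all subcutaneous libraries (limma adjusted p = 0.0075, and 0.0814 without both libraries numbered 3). The subcutaneous values of miR-122-5p have no spread because they are at the floor, so its p-values depend on the floor. The part of these cell types in the miR-129 values was not tested. Of the brown list, miR-455-5p was at the floor in all 6 libraries. The other arm, miR-455-3p, had a mean of 13.52 in brown and 7.69 in subcutaneous fat. MiRNAs of skeletal muscle varied within both tissues: the summed share of that list ran from 0.0526% to 6.29% of the library in brown fat and from 0.0706% to 5.12% in subcutaneous fat. It was highest in BAT_EPA 4 and SAT_EPA 3, while miR-1a-3p, a defining muscle miRNA, was at the floor in all 6 libraries. SAT_EPA 1 stood apart in the epithelial miR-205-5p, at 15.02.

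MiR-129-2-3p, the 3p arm of the chromosome 2 hairpin, was the most abundant of the 3 arms. Its log2 abundance was 11.56 in BAT_EPA 3, 10.82 in BAT_EPA 4 and 11.51 in BAT_EPA 5, a mean of 11.30 ± 0.41 (SD, n = 3). In subcutaneous fat it was at the floor in SAT_EPA 1 and SAT_EPA 8 and at 4.85 in SAT_EPA 3, a mean of 3.83 ± 0.88 (SD, n = 3). The lowest brown value lay 5.97 log2 units above the highest subcutaneous one, and the difference of the means was 7.47. Since 2 of the 3 subcutaneous libraries are at the floor, that difference depends on the floor. Among arms above the floor, miR-129-2-3p ranked 60 of 243 in BAT_EPA 3, 75 of 243 in BAT_EPA 4 and 61 of 258 in BAT_EPA 5. In SAT_EPA 3 it ranked 246 of 273. It was thus in the upper part of every brown library and near the end of the list in the 1 subcutaneous library where it appeared.

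MiR-129-5p, the arm both hairpins can give, followed the same order of brown libraries at its extremes. Its log2 abundance was 10.74 in BAT_EPA 3, 9.85 in BAT_EPA 4 and 10.23 in BAT_EPA 5, a mean of 10.27 ± 0.45 (SD, n = 3). In subcutaneous fat every library listed it at the floor, so no fold is given. It ranked 77, 94 and 87 among the arms above the floor in the brown libraries.

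MiR-129-1-3p, the arm named for the chromosome 6 hairpin, stood barely above the floor in brown fat. Its log2 abundance was 4.98 in BAT_EPA 3, 5.20 in BAT_EPA 4 and 4.63 in BAT_EPA 5, a mean of 4.94 ± 0.29 (SD, n = 3), and every subcutaneous library listed it at the floor. Its rank was 243 of 243, 239 of 243 and 255 of 258. In BAT_EPA 3 and in BAT_EPA 5 its value was the lowest above the floor in the library, 4.98 and 4.63, and in BAT_EPA 4 the lowest was 5.00. The arm was highest in BAT_EPA 4, the brown library in which miR-129-5p and miR-129-2-3p were lowest.

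**Figure D1:**
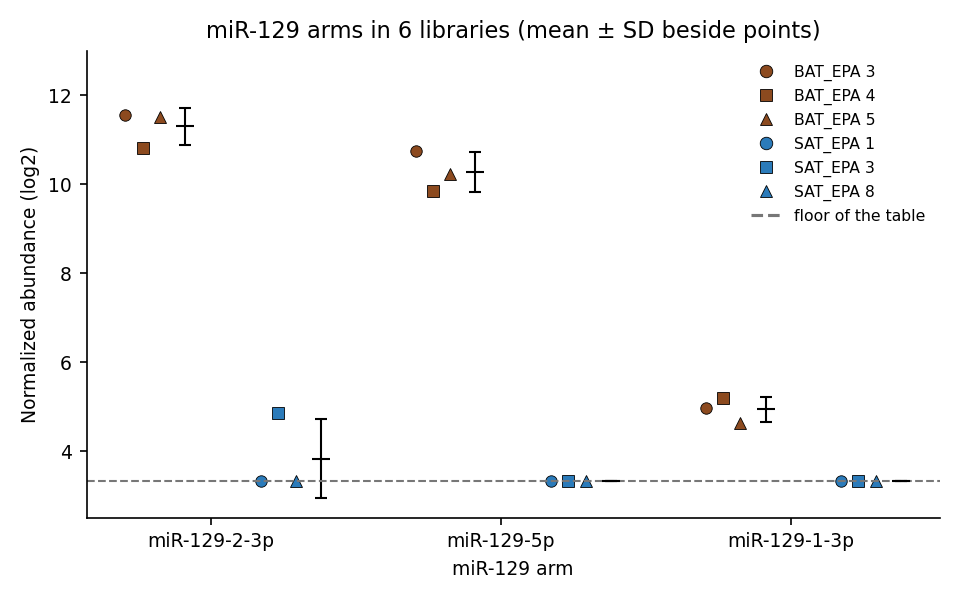
Normalized abundance (log2, vertical axis) of the 3 miR-129 arms (horizontal axis) in each library, with brown symbols for brown fat, blue symbols for subcutaneous fat, bars for mean ± SD (n = 3) and a dashed line at the floor of 3.32. MiR-129-2-3p and miR-129-5p lie between 9.85 and 11.56 in brown fat, miR-129-1-3p lies between 4.63 and 5.20, and 1 of the 9 subcutaneous values is above the floor, at 4.85.

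In all 3 arms the brown values lay wholly above the subcutaneous ones. Of the 341 arms above the floor in at least 1 library, 27.6% showed the same separation and 32.3% the opposite one; the members were chosen on this contrast, so nothing is read from it. A narrower class holds arms above the floor in every brown library and at the floor in every subcutaneous one. It has 17 members, 4.99% of the 341, and 2 of them are miR-129 arms: miR-129-5p has the highest brown mean of the 17 and miR-129-1-3p the lowest. MiR-129-2-3p is outside this class because of its value in SAT_EPA 3. The mirror class, found only in subcutaneous fat, has 18 members (5.28%). Fewer cells that make miR-129 and less miR-129 per cell cannot be told apart in tissue RNA.

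Together the 3 arms made up 0.196% of the linear abundance above the floor in BAT_EPA 3, 0.114% in BAT_EPA 4 and 0.171% in BAT_EPA 5. In SAT_EPA 3 their share was 0.000786%, and it was 0 in SAT_EPA 1 and SAT_EPA 8. BAT_EPA 4, lowest in both abundant arms, was also the brown library with the most miR-133a-3p, a muscle miRNA (17.20, against 10.32 in BAT_EPA 3 and 12.50 in BAT_EPA 5). SAT_EPA 3, the subcutaneous library with miR-129-2-3p above the floor, was likewise the highest there in miR-133a-3p (16.90, against 10.74 and 13.32) and had the most arms above the floor (273). MiR-122-5p was lowest in BAT_EPA 4 as well, at 5.60. The part of muscle RNA in the miR-129 values was not tested. Without BAT_EPA 4 the brown means were 11.54 for miR-129-2-3p and 10.48 for miR-129-5p. The spread of the members was that of a typical arm or somewhat larger: over 213 tested arms above the floor in all brown libraries, the SD in brown fat had a median of 0.27 and quartiles of 0.16 and 0.49.

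The arms were then set against each other within each brown library. These are the brown values already known when the arms were chosen, so the differences are a description, with no test. MiR-129-2-3p exceeded miR-129-5p by 0.82 in BAT_EPA 3, 0.97 in BAT_EPA 4 and 1.28 in BAT_EPA 5, which is 1.76-fold, 1.97-fold and 2.43-fold. The mean difference was 1.03 ± 0.24 (SD, n = 3), in the same direction in 3 of 3 libraries. MiR-129-2-3p exceeded miR-129-1-3p by 6.58, 5.62 and 6.89, a mean of 6.36 ± 0.66 (SD, n = 3). MiR-129-5p exceeded miR-129-1-3p by 5.34 ± 0.60 (SD, n = 3), again in 3 of 3 libraries. Each mean difference exceeded the SD between libraries. The gaps to miR-129-1-3p depend on how values near the floor are treated: with 40 added to the linear values they were 5.17 for miR-129-2-3p and 4.17 for miR-129-5p, and with the floor subtracted and 1 added 6.87 and 5.84. On the linear scale above the floor, miR-129-1-3p made up 0.713%, 1.47% and 0.502% of the sum of both 3p arms in BAT_EPA 3, 4 and 5. The part of the 3p value assigned to the chromosome 2 hairpin was thus the larger in each brown library.

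Other miRNAs with more than 1 locus give a scale for this gap. The table holds 28 sets of arms whose names differ only in a locus number. In 18 sets every arm was at the floor in all 6 libraries, and in 7 at least 1 arm was above it in all 3 brown libraries. Of these 7, 5 had both arms above the floor in every brown library, among them miR-129. The gap between the loci in brown fat was 6.36 for miR-129 and ran from 0.45 to 5.09 in the other 6 sets; where the lower arm is at the floor, the gap is a minimum set by the floor. The order of the gaps is not fixed, because miR-129-1-3p itself lies near the floor. With 40 added the gap was 5.17 for miR-129 and 4.55 for miR-181a, and with the floor subtracted it was 6.87 for miR-129 but 7.23 for miR-24.

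The other sets show both kinds of pattern. MiR-181a came closest to miR-129: miR-181a-2-3p stood at 11.51 ± 1.06 (SD, n = 3) and miR-181a-1-3p at 6.42 ± 0.35 in brown fat, while in subcutaneous fat they were at 8.69 ± 1.18 and 8.30 ± 0.19. MiR-24-2-5p stood at 7.32 ± 0.10 in brown fat with miR-24-1-5p at the floor in all 6 libraries. In miR-30c the loci were closer in brown fat, with miR-30c-2-3p at 10.02 ± 0.08 and miR-30c-1-3p at 9.07 ± 0.23. MiR-365-1-5p (9.10 ± 0.51) and miR-365-2-5p (7.87 ± 0.31), from a family linked to brown adipocyte differentiation, differed by 1.23. In miR-125b the gap of 0.45 was smaller than the SD of miR-125b-1-3p (0.58).

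**Figure D2:**
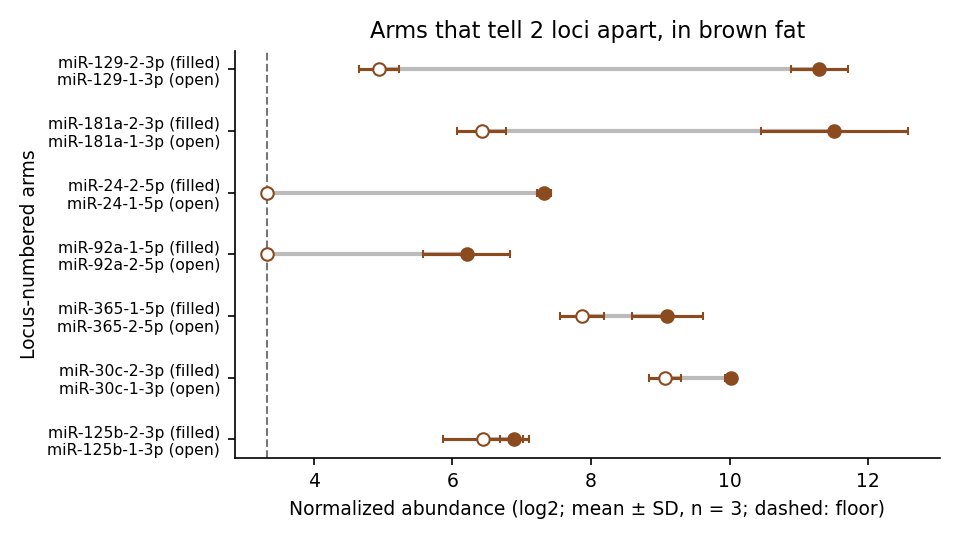
Normalized abundance in brown fat (log2, horizontal axis; mean ± SD, n = 3) for the 7 sets of locus-numbered arms (vertical axis) with an arm above the floor in all 3 brown libraries, with filled points for the higher arm, open points for the lower arm and a dashed line at the floor. The gap of 6.36 between miR-129-2-3p and miR-129-1-3p stands at the top on this scale, followed by 5.09 for miR-181a, and the smallest is 0.45 for miR-125b.

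Within miR-129, both sides of the hairpin were abundant. For most hairpins 1 arm is kept and the other is degraded, so arms of like level are the less common case. In brown fat 37 other miRNAs had a 5p and a 3p row, named alike apart from the arm, above the floor in all 3 libraries. MiRNAs with a locus number on only 1 arm, such as miR-365, were left out. MiR-486 and miR-3107, with the same mean 5p value (17.68), were counted separately. The 3p arm was the higher in 17 of them and the 5p arm in 20. The median size of the difference was 3.53 on the log2 scale, and 3p minus 5p ran from -11.08 to 10.91. In 7 of the 37 the arms were as close as those of miR-129 (1.03) or closer. This set miR-129 among the more balanced hairpins of these libraries, as far as a 5p value summed over both loci can be compared with the 3p value of 1. In subcutaneous fat no balance can be given, since miR-129-5p was at the floor throughout.

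**Figure D3:**
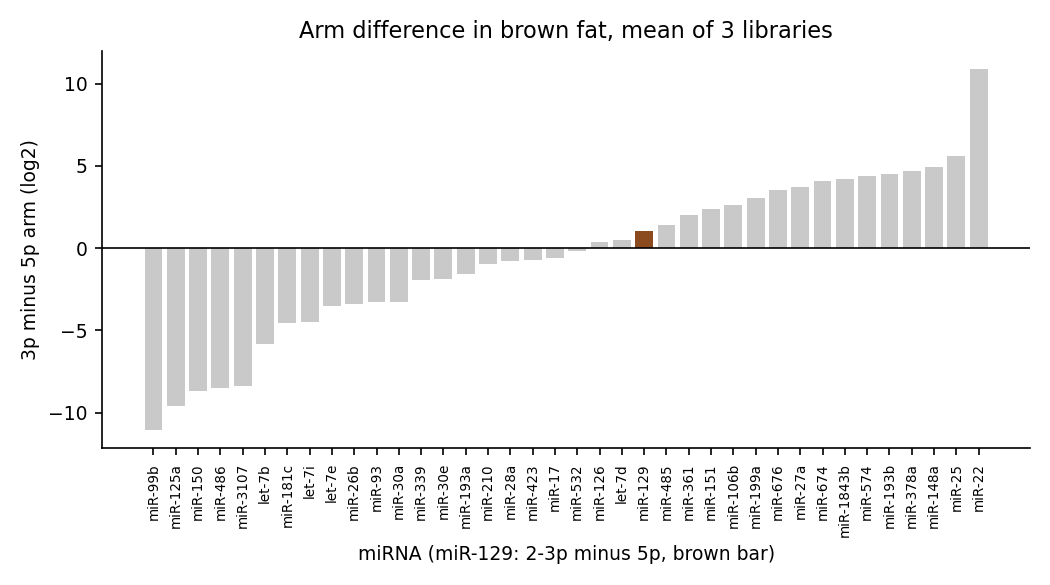
Difference between the 3p and the 5p arm in brown fat (log2, vertical axis; mean of 3 libraries) for 37 miRNAs with both arms, named alike, above the floor and for miR-129 (2-3p minus 5p, brown bar), in order of size along the horizontal axis. MiR-129 stands at 1.03, while the grey bars run from -11.08 to 10.91.

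The tested arms with the profile most like that of miR-129 were found by the root mean square (RMS) difference between log2 profiles over the 6 libraries, after each arm was centred on its own mean. These are descriptions over 6 libraries of 2 tissues, and any arm high in brown fat shares the main feature. For miR-129-5p the nearest was miR-193b-5p (RMS difference 0.42), then miR-129-2-3p (0.59), miR-365-1-5p (0.60), miR-2137 (0.70) and miR-6366 (0.83). The median over the other 268 tested arms was 3.80. For miR-129-2-3p the nearest was again miR-193b-5p (0.40), then miR-129-5p (0.59), miR-2137 (0.96), miR-365-1-5p (0.99) and miR-455-3p (1.04), against a median of 4.08. On this measure an arm of another miRNA was thus nearer to each miR-129 arm than the other miR-129 arm was. MiR-129-5p was at the floor in every subcutaneous library, and miR-129-2-3p in SAT_EPA 1 and SAT_EPA 8. The distance between these arms, and so this order, depends on the floor.

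MiR-193b-5p and miR-365-1-5p come from a cluster reported to promote brown adipocyte differentiation. A link between miR-129 and that process was not tested. MiR-193b-5p stood at 10.87, 10.08 and 10.43 in BAT_EPA 3, 4 and 5. It was at the floor in SAT_EPA 1 and SAT_EPA 8 and at 4.53 in SAT_EPA 3, so the subcutaneous library with miR-129-2-3p above the floor was also the 1 with miR-193b-5p above it. MiR-365-1-5p stood at 9.45, 8.52 and 9.35 in brown fat and at the floor in all 3 subcutaneous libraries. In each of these arms BAT_EPA 4 held the lowest brown value, as it did for miR-129-5p and miR-129-2-3p. The arms were picked for likeness over these same libraries, so such shared features follow in part from the choice. Of the other near arms, miR-2137 had its lowest brown value in BAT_EPA 4 (12.98), miR-6366 in BAT_EPA 3 (8.42) and miR-455-3p in BAT_EPA 5 (12.98). MiR-455-3p, another miRNA of brown adipocyte differentiation, was above the floor in every library of either tissue. Its mean was 13.52 ± 0.52 (SD, n = 3) among brown and 7.69 ± 1.57 among subcutaneous libraries.

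**Figure D4:**
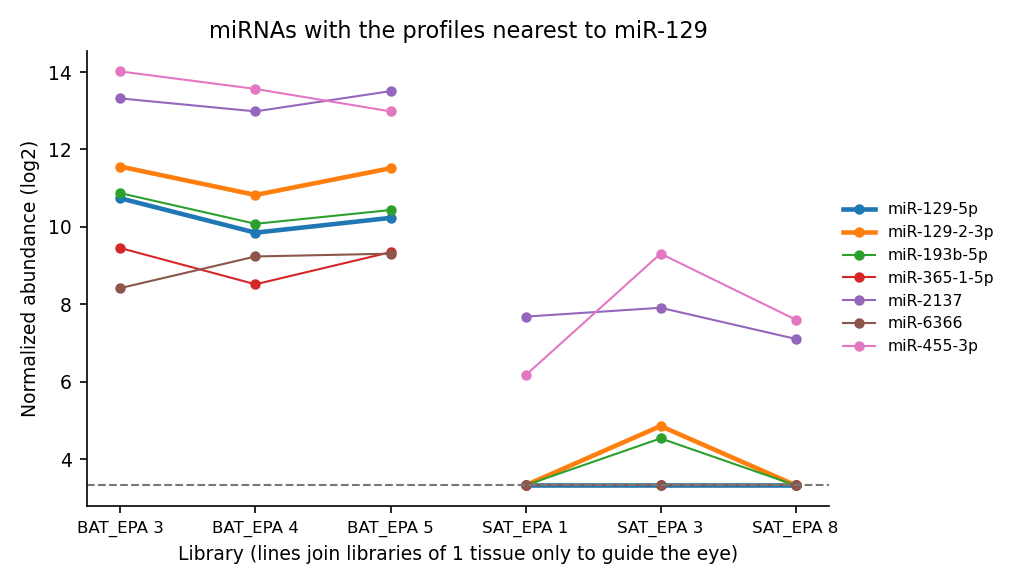
Normalized abundance (log2, vertical axis) in each library (horizontal axis) for miR-129-5p and miR-129-2-3p (thick lines) and the 5 other arms with the nearest centred profiles (thin lines); lines join libraries of 1 tissue to guide the eye, and the dashed line is the floor. MiR-193b-5p runs between the miR-129 arms in all 3 brown libraries (10.87, 10.08 and 10.43) and rises to 4.53 in SAT_EPA 3, where miR-129-2-3p is at 4.85.

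MiR-129 is known from the nervous system, so 20 other miRNA arms enriched in neurons or myelinating glia were set beside it. Of these 20, 13 were at the floor in all 6 libraries, among them miR-124-3p, miR-9-5p, miR-9-3p and miR-137-3p, which are defining miRNAs of neurons. MiR-219-5p, a miRNA of myelinating cells that the list names miR-219a-5p, was at the floor too. The summed share of the list was 0.0245% to 0.0545% of the library in brown fat and 0.0518% to 0.0741% in subcutaneous fat. In brown fat this was below the share of the 3 miR-129 arms in every library (0.114% to 0.196%). A floor value does not show absence: miR-1a-3p was at the floor also in BAT_EPA 4, where miR-133a-3p, with which it is co-expressed in muscle, stood at 17.20. The part of nervous tissue in the miR-129 values was not tested.

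Of the 6 arms of this list that passed the filter, 0 were higher in brown fat and 2 lower by limma at an adjusted p of 0.05. Over all 269 tested arms the same fit called 33.5% higher and 35.7% lower, so nothing about the list is read from its counts. At an unadjusted p of 0.05 the counts of the list were 1 and 2. The median difference of the 6, brown minus subcutaneous, was -1.03, beside -0.45 for all tested arms; with median-of-ratios scaling the latter was -0.04, a shift of the scale to keep in mind for every difference between the tissues. The 2 lower arms were miR-138-5p, which restrains dendritic spine growth, and miR-338-3p, a miRNA of myelinating glia. MiR-138-5p was at the floor in all 3 brown libraries and at 7.32, 8.23 and 7.41 in SAT_EPA 1, 3 and 8 (limma adjusted p = 0.00019, and 0.00010 to 0.0036 over the alternatives). Its brown values have no spread because they are at the floor, so these p-values depend on the floor. MiR-138-5p was the reverse of miR-129-5p in its listing: floor in 1 tissue, present in every library of the other. MiR-338-3p stood at 5.49 and 7.0 in BAT_EPA 3 and 4, at the floor in BAT_EPA 5, and at 7.55, 8.18 and 8.52 in subcutaneous fat. Its difference was -2.81 ± 0.92 (SE), with a limma adjusted p of 0.032, which lay between 0.0097 and 0.186 over the alternatives. The call was lost without BAT_EPA 3 (difference -2.92, limma adjusted p = 0.0867), without SAT_EPA 3 (-2.76, 0.0933), without SAT_EPA 8 (-2.60, 0.104) and without both libraries numbered 3 (-2.87, 0.186). It was also lost with median-of-ratios scaling (-2.40, 0.0522) and with the floor subtracted (-4.01, 0.0934).

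The other 4 tested arms did not pass. MiR-485-5p leaned the way of miR-129, at 6.34, 6.28 and 6.04 in brown fat. In subcutaneous fat it was at the floor in SAT_EPA 1 and SAT_EPA 8 and at 5.94 in SAT_EPA 3 (difference 2.02 ± 0.79 SE, limma adjusted p = 0.059). Without SAT_EPA 3 its limma adjusted p was 0.0019 with a difference of 2.89, and over all alternatives it lay between 0.0019 and 0.170. The CREB-driven pair miR-132-3p and miR-212-3p had differences of -0.45 ± 0.30 and -1.60 ± 0.83 (SE), with limma adjusted p of 0.213 and 0.127. Without BAT_EPA 5 miR-212-3p had a difference of -2.41 and a limma adjusted p of 0.018. MiR-128-3p differed by -0.03 ± 0.57 (SE; limma adjusted p = 0.965). MiR-218-5p did not pass the filter: it was at 6.01 in SAT_EPA 1 and at the floor elsewhere.

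**Figure D5:**
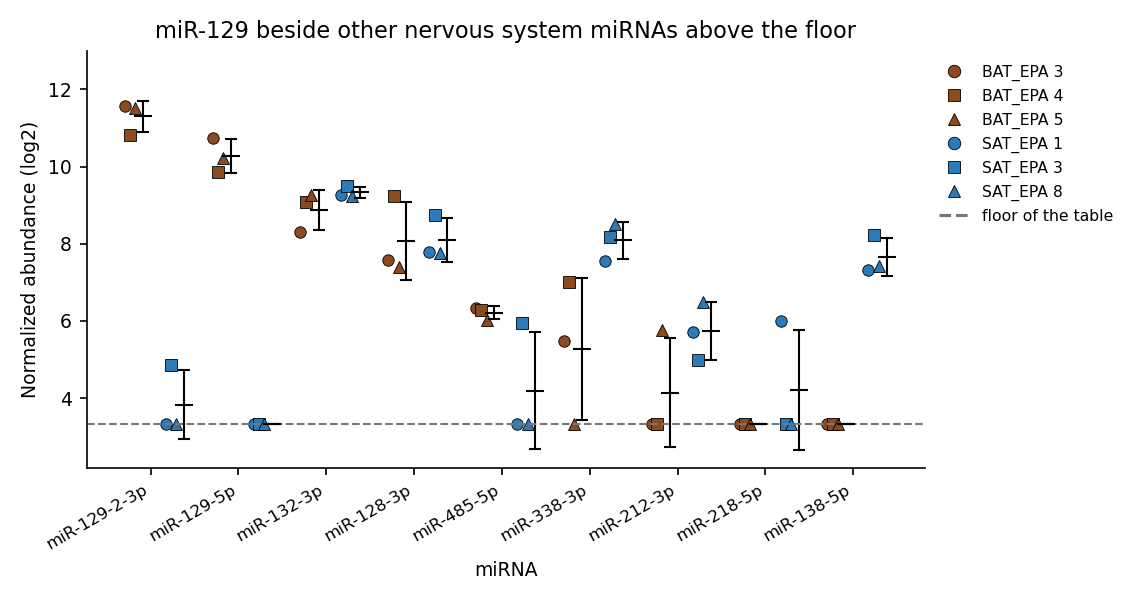
Normalized abundance (log2, vertical axis) of miR-129-2-3p, miR-129-5p and the 7 arms of the nervous system list that were above the floor in any library (horizontal axis), with brown symbols for brown fat, blue symbols for subcutaneous fat, bars for mean ± SD (n = 3) and a dashed line at the floor. The miR-129 arms are the highest in brown fat, from 9.85 to 11.56, and miR-138-5p is at the floor there and between 7.32 and 8.23 in subcutaneous fat.

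The genome neighbours of the loci that were in the table did not share the listing of miR-129. Within 2 Mb of Mir129-2 there are 6 other hairpins in RefSeq with 12 arms, of which the 2 arms of miR-670 were in the table. MiR-670-5p and miR-670-3p were at the floor in all 6 libraries, which does not show absence. Mir670 lies in exon 2 of the host gene Mir670hg and Mir129-2 in an intron of it. The part of this host in the miR-129 values was not tested. Within 2 Mb of Mir129-1 there are 5 other hairpins with 10 arms, and 4 of these arms were above the floor in some library. MiR-335-3p and miR-335-5p, 1.72 Mb away in the imprinted gene Mest, were at the floor in all 3 brown libraries and at 10.78 ± 0.40 and 8.21 ± 0.49 (SD, n = 3) in subcutaneous fat. MiR-182-5p, 1.14 Mb away, stood at 12.49 ± 0.50 in brown fat and 10.35 ± 1.60 in subcutaneous fat, and miR-183-5p of the same cluster at 7.92 ± 0.46 and 8.31 ± 1.64. SAT_EPA 1, the library high in miR-205-5p, held the highest subcutaneous value of both (12.20 and 10.21). Without it, a comparison added after the data were seen, the subcutaneous means were 9.42 for miR-182-5p and 7.37 for miR-183-5p, so that the difference of miR-183-5p turned from -0.39 to 0.55 (limma adjusted p = 0.678 and 0.209). That of miR-182-5p went from 2.15 to 3.07 (limma adjusted p = 0.0471 and 0.00067). The call for miR-182-5p was lost without any 1 of the other libraries (limma adjusted p from 0.0746 to 0.155). With all 6 libraries kept, it was also lost with the floor subtracted and without a mean-variance trend (limma adjusted p = 0.0634 and 0.0632).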

How the data were processed

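The authors deposited 1 table of log2 values for 1251 miRNA arms in 6 libraries (3 of brown and 3 of subcutaneous fat). Per the labels' protocols, total RNA was extracted from frozen tissue and libraries were made by an Illumina small RNA protocol. The authors, per the series' design text, scaled counts of each unique read to total usable reads, added 40 and mapped about 13.8 M reads per sample to build mm10, which the submitters' processing notes also name. What aligner, trimming and miRNA annotation they used is not given in the sources used here. All deposited values have a floor of 10 on the linear scale, and 910 arms are at it in all 6 libraries. An added count of 40 and a floor of 10 do not match, and the step that made the floor is unknown, so a value at the floor is a listing and not a measured zero.

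The tissues were compared over all arms with limma 3.58.1 in R 4.3.3 (mean-variance trend, Benjamini-Hochberg adjustment at 0.05). An arm was tested if its mean above the floor was at least 24.05 linear units, which left 269 arms. Of the members, 2 passed, through their brown values; miR-129-1-3p did not (mean 10.5). A planned exact sign-flip permutation test between arms cannot go below p = 0.25 with 3 libraries and uses values known at the choice, so those differences are given with no test. The fit was tested on simulated data with normal noise and no floor, in which 60 of 269 arms had known changes. It called 40% of changes of 1 log2 unit, 72.25% of those of 2 and 84% of those of 3. Of its calls, 3.79% were unchanged arms. In the real data 69.1% of the tested arms were called and many values were at the floor, so these rates may not carry over. An arm that did not pass may still differ between the tissues. Python 3.11.15 with numpy 2.4.6 and pandas 2.3.3 was used for the rest.

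The members, the lists and the tests were chosen with earlier results of these data known. Arms named were the 3 members, the 5 nearest profiles of each abundant arm, the tested nervous system arms, the 5 other locus-numbered sets highest in brown fat, and neighbours within 2 Mb above the floor; the other arms named were chosen after their values were seen. Alternatives were other pseudocounts, filters, scaling and variance model, and leaving out libraries.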

Additional observations from a re-analysis of the deposited data

How the results depend on the processing

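The brown levels of miR-129-5p and miR-129-2-3p stayed within the spread between libraries under every alternative run. The 3 differences between arms in brown fat kept their direction. That between miR-129-2-3p and miR-129-5p lay between 0.90 and 1.13, that between miR-129-2-3p and miR-129-1-3p between 5.17 and 6.87, and that between miR-129-5p and miR-129-1-3p between 4.17 and 5.84. The level of miR-129-1-3p in brown fat, close to the floor, was 6.15 with 40 added to the linear values and 4.42 with the floor subtracted and 1 added. For miR-129-2-3p these settings gave 5.80 and 1.44 in subcutaneous fat and differences between the tissues of 5.52 and 9.85. By construction, both settings move values near the floor. Without SAT_EPA 3 no difference is given, since all remaining subcutaneous libraries are at the floor. A filter 10 times as strict called 58 arms higher in brown fat of 157 tested, against 90 of 269. Of the nervous system list, 1 arm was higher in brown fat with median-of-ratios scaling, without both libraries numbered 3, and, in an alternative chosen after seeing the data, without BAT_EPA 4 and SAT_EPA 3, which had the most miR-133a-3p; leaving out 1 library gave 0 to 1. The number lower was 0 with the strict filter, 1 with the floor subtracted, 1 with median-of-ratios scaling and 1 without both libraries numbered 3; leaving out 1 library gave 1 to 3. The cause of these changes was not tested, apart from the fewer arms under the strict filter. No paired analysis was possible because the tissues share only 1 replicate number, 3. Read depth is unknown, so how far depth limits the low values cannot be given.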

Other observations

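Another locus-numbered arm of a nervous system miRNA, chosen after its values were seen, was above the floor in some brown libraries and in no subcutaneous one. MiR-219-1-3p stood at 6.04 in BAT_EPA 3 and 6.14 in BAT_EPA 5, and was at the floor in BAT_EPA 4 and in all 3 subcutaneous libraries. MiR-219-2-3p and miR-219-5p were at the floor in all 6 libraries. MiR-128-1-5p was likewise above the floor in 1 brown library and in 0 subcutaneous ones. How many of all arms share such a listing was not counted. Arms of the nervous system list also went the other way. MiR-138-5p was above the floor in every subcutaneous library and in no brown one. MiR-218-5p was above it in SAT_EPA 1 alone.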
